A study of Mus musculus with 6 samples.

Results

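FOS, FOSL1, JUNB, JUND, KLF6, KLF10, IER2, IER5 and BTG2 are grouped here as immediate-early genes, although JUND is present in most resting cells. They were read by name from a table of 4195 genes, in which all 9 were listed. The cells were KYSE30, a human line established from a squamous carcinoma of the esophagus, with the genotype given as WT, in 2 groups of 3 libraries. Control cells and cells exposed to 100 uM acetylcholine (ACh, a neurotransmitter) were both taken at 4 h, and the labels name no vehicle for Control. The labels give mouse as the organism, but 4183 of the 4195 gene IDs start with ENSG, the prefix of human Ensembl genes. All libraries come from 1 line, and the labels do not say whether replicates were grown separately, so the p-values reflect only how far these libraries differ, which may be technical.

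Immediate-early genes are transcribed soon after a growth factor, a neurotransmitter or a stress reaches the cell, by factors that are already present and without new protein synthesis. Receptor signals pass through the RAS, RAF, MEK and ERK kinases and through calcium to SRF, ELK factors and CREB at their promoters, and their short-lived mRNAs usually return to baseline within hours. AP-1 is a dimer of a FOS and a JUN family protein, or of JUN proteins alone, and in squamous epithelium it controls growth, migration and differentiation genes.

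Values are normalised read counts, which by their values appear to be reads that the authors divided by 1 factor per library. The authors' deposited table holds no gene with an unadjusted p of 0.05 or more, so it is a selection, and a gene outside it has no value here. A gene is said to have risen or fallen where both the limma adjusted p and the adjusted p of the authors' deposited table were under 0.05. That held for 63.8% of all listed genes, 28.8% higher and 35.0% lower in ACh, while limma alone passed 99.6% and the authors' adjusted p alone 63.8%. For 234 listed genes the authors' adjusted p sits at its upper limit, which may stand for a missing value. They were counted as not passing. Of the 9 immediate-early genes 7 passed, close to that background. FOS, FOSL1 and KLF10 rose, JUNB, JUND, IER2 and IER5 fell, and KLF6 (higher) and BTG2 (lower) did not pass. Once a trend with GC content was taken out of each library, FOS and FOSL1 were called and the other 5 were not. The sign of JUNB, JUND and IER2 turned. Of the 3676 listed genes with a GC value, 353 were then called. On the deposited scale, the 9 genes had the following median. Their median log2 fold change was -0.14, against -0.10 over all listed genes. In bulk RNA, fewer cells expressing a gene and less RNA per cell cannot be told apart.

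Per library the counts of the listed genes added up to 11097307 to 11468978 in Control and to 10519515 to 10681118 in ACh, without overlap. If the values are reads divided by 1 factor, the sums before division were 11258647 to 14453391 in Control and 9420144 to 10036897 in ACh. The sequencing depth is unknown, and these totals cannot be told apart from the treatment. Of the squamous epithelial markers looked for, EGFR, DSG3, TP63 and SOX2 were listed, with EGFR at 68822 in Control. TP63 rose by 0.23 on the log2 scale, SOX2 fell by 0.20, and EGFR (0.07) and DSG3 (0.12) did not pass. COL1A1 of fibroblasts, LAPTM5 of immune cells and EGFL7 of endothelium were each the only listed marker of their cell type. COL1A1 was at 146.1 to 193.5 in Control and 133.0 to 147.1 in ACh and did not pass. LAPTM5 was at 17.7 to 21.3 in Control and 31.1 to 48.2 in ACh (limma adjusted p = 0.00138). It could not be called, since its authors' adjusted p is among those that may stand for a missing value. EGFL7 fell, with 1052 to 1081 in Control and 818 to 970 in ACh. The part of these cell types in the results was not tested. Of 11 listed genes read as signs of RNA quality 7 fell, among them MT-ATP8 (log2 fold change -0.97) and MT-ND3 (-0.35), and the nuclear RNA NEAT1 rose by 0.14. The part of RNA quality in the results below was not tested.

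**Figure D1:**
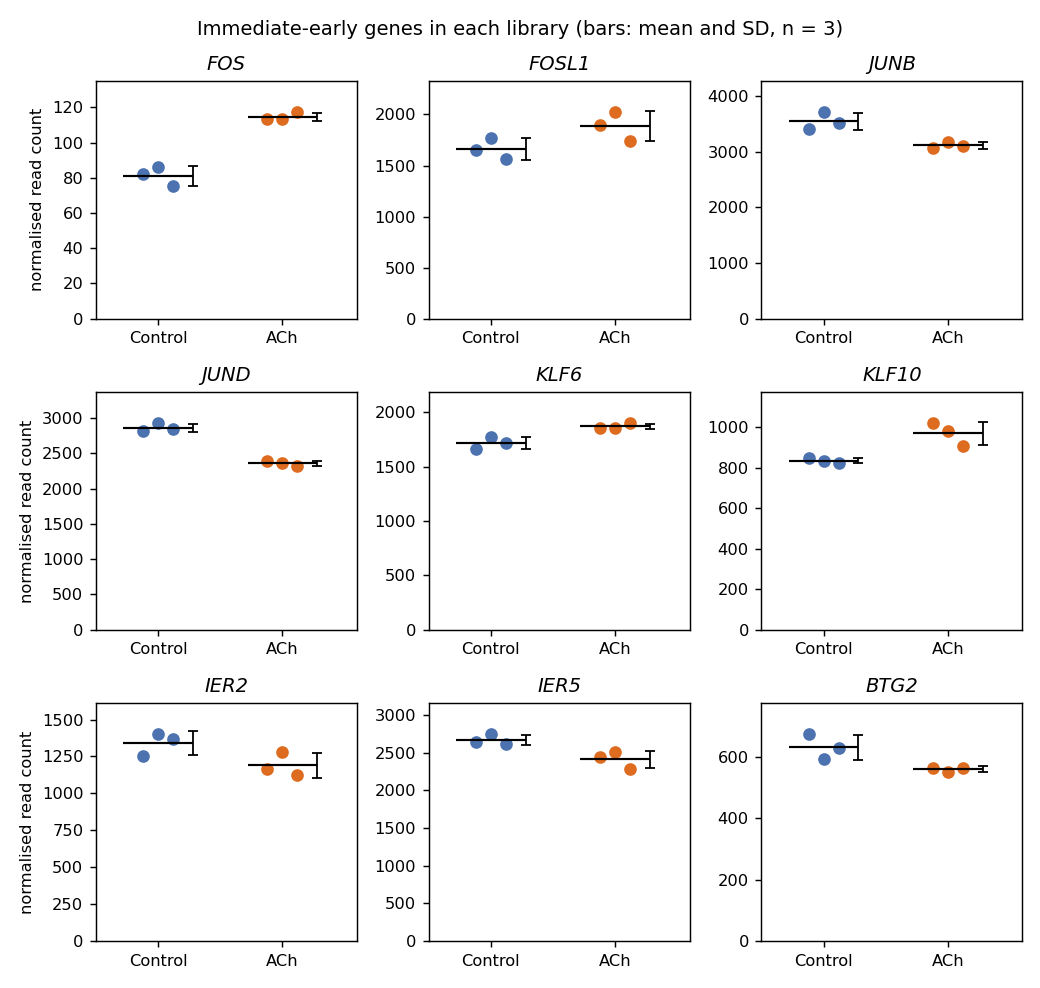
Normalised read count (vertical axes, starting at 0) of the 9 immediate-early genes in each of the 3 Control and 3 ACh libraries, with the mean and SD of each group. The groups overlap in FOSL1 and IER2, and the FOS counts lie near 100 while those of JUNB reach 3713.

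FOS showed the largest fold change of the 9 genes. It encodes the AP-1 subunit that is the classical immediate-early product. FOS (ENSG00000170345, chromosome 14, 75278774 to 75282230, coordinates as the file gives them) had counts of 81.9, 86.2 and 75.2 in Control replicates 1 to 3 and of 113.7, 113.1 and 117.4 in ACh. Every ACh library was above every Control library, with a gap of 26.9. The mean rose from 81.1 ± 5.54 to 114.7 ± 2.31 (SD, n = 3 each), or 0.50 ± 0.14 as a log2 fold change with its standard error (limma adjusted p = 0.00285).

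This was also the least deeply counted member. FOS was just inside the threshold, since the authors' deposited table gave it an adjusted p of 0.0496. Every value in a library was a whole multiple of 1 step, and FOS stood at 83 to 112 steps. If a step is 1 read, counting alone would give an SD of 8.65 in Control and 11.2 in ACh, more than the 5.54 and 2.31 observed. The limma 95% interval of the log2 fold change ran from 0.21 to 0.78.

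FOSL1 encodes FRA-1, a FOS family subunit that lacks the transactivation domain of FOS and is often abundant in squamous carcinoma cells. FOSL1 (ENSG00000175592, chromosome 11, 65892049 to 65900573) had counts of 1648, 1774 and 1565 in Control and of 1901, 2024 and 1739 in ACh. ACh replicate 3 lay below Control replicate 2, so the groups overlapped. The mean rose from 1662 ± 105 to 1888 ± 143 (SD, n = 3), or 0.18 ± 0.05 as a log2 fold change with its standard error (limma adjusted p = 0.00357). In both groups replicate 2 was the highest library and replicate 3 the lowest, and with the replicate number as a block the limma call was kept.

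JUNB and JUND, the listed JUN family subunits, went the other way on the deposited scale, a direction that turned, without a call, after removal of the GC trend. JUNB is an inducible subunit that can restrain growth, and JUND is a subunit present in most resting cells. JUND (ENSG00000130522, chromosome 19, 18279760 to 18281622) had counts of 2811, 2926 and 2839 in Control and of 2389, 2358 and 2318 in ACh. Its groups stood 422 apart, the widest gap of the 9 genes in counts. The mean fell from 2859 ± 60.1 to 2355 ± 35.5 (SD, n = 3), or -0.28 ± 0.03 as a log2 fold change with its standard error (limma adjusted p = 4.23e-06), and its p in the authors' deposited table ranked 137 among all listed genes.

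JUNB (ENSG00000171223, chromosome 19, 12791496 to 12793315) had counts of 3412, 3713 and 3512 in Control and of 3064, 3178 and 3095 in ACh. The groups did not overlap. The mean fell from 3546 ± 153 to 3112 ± 59.2 (SD, n = 3), or -0.19 ± 0.04 as a log2 fold change with its standard error (limma adjusted p = 0.000215). JUNB lies inside HOOK2, an endosomal adaptor gene on the opposite strand, which was listed too and fell from 1758 ± 132 to 1373 ± 20.9 (SD, n = 3). No source used here says whether strand was counted, so a read from this stretch cannot be given to JUNB or HOOK2 with certainty.

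FOS and FOSL1 held a larger part of the 4 AP-1 transcripts in every ACh library than in any Control library. This follows from the rises and falls given above, so it is no separate support for them. JUN, FOSB and FOSL2 were not listed, so the shares do not cover the whole FOS and JUN families. A ratio within a library does not depend on how libraries were scaled, and lengths were those in the table. Per kilobase, FOS and FOSL1 together were 21.0%, 21.1% and 19.8% of the summed level of the 4 genes in Control and 26.0%, 26.9% and 24.5% in ACh. Nearly all of this was FOSL1, whose mean share went from 20.1% ± 0.70 to 24.9% ± 1.23, while that of FOS went from 0.571% ± 0.027 to 0.884% ± 0.041 (SD, n = 3).

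The JUN subunits held correspondingly less. The mean share of JUND went from 35.0% ± 0.58 to 31.5% ± 0.70 and that of JUNB from 44.4% ± 0.54 to 42.7% ± 0.82 (SD, n = 3). The groups did not overlap in any of these shares. The exact two-sided permutation test gave p = 0.1 for the summed share of FOS and FOSL1, the smallest value that 3 against 3 libraries allow, so no difference could reach 0.05 by this test. Over the 13 shares and ratios compared here and below, each permutation p of 0.1 became 0.118 after Benjamini-Hochberg adjustment. Taken as pairs of the same replicate number, the summed share was higher in ACh in 3 of 3 pairs (exact paired permutation p = 0.25, the smallest that 3 pairs allow).

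**Figure D2:**
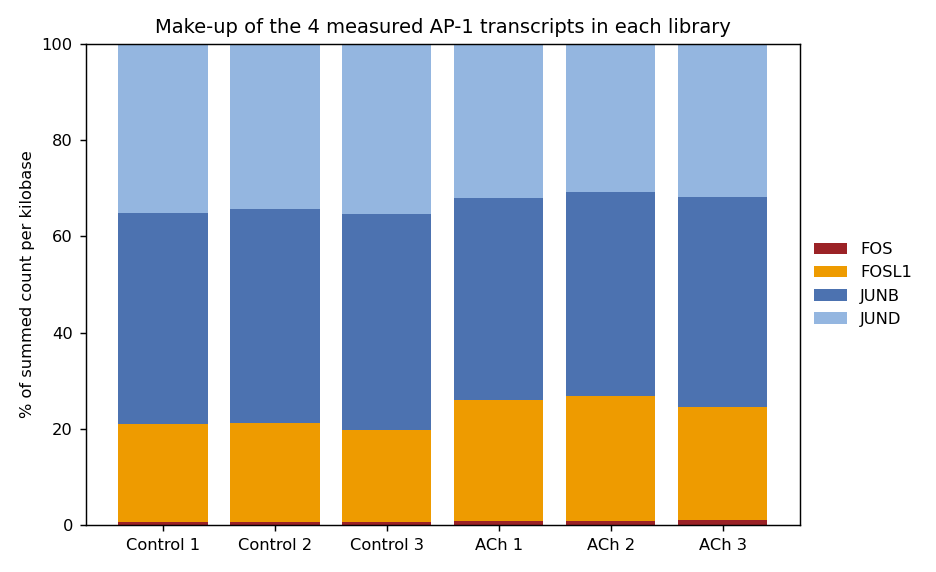
Percentage (vertical axis, 0 to 100) that FOS, FOSL1, JUNB and JUND each hold of their summed count per kilobase, 1 bar per library. The FOS and FOSL1 part sits at 19.8% to 21.1% in the 3 Control libraries and at 24.5% to 26.9% in the 3 ACh libraries.

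Single ratios gave the same order of the groups. The FOSL1 to JUND ratio per kilobase was 0.579, 0.598 and 0.544 in Control and 0.786, 0.848 and 0.740 in ACh, a 1.38-fold difference. The FOS to JUND ratio was 1.72-fold higher in ACh, with means of 0.0163 and 0.0280. The FOS to FOSL1 ratio went from 0.0284 ± 0.0005 to 0.0356 ± 0.0034 (SD, n = 3), and the JUNB to JUND ratio from 1.27 ± 0.03 to 1.35 ± 0.04 (SD, n = 3). None of these ratios overlapped between the groups, and each had the exact permutation p of 0.1.

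The order of the 9 transcripts per kilobase was nearly the same in both groups. In Control JUNB was highest at 1948 ± 84.0 normalised counts per kilobase, followed by JUND (1534 ± 32.3), FOSL1 (881 ± 55.7), IER5 (636 ± 16.6), IER2 (436 ± 25.8) and KLF6 (280 ± 9.23). BTG2 (229 ± 14.8), KLF10 (209 ± 3.11) and FOS (25.1 ± 1.71) closed the order (SD, n = 3 throughout). No neighbours in this order overlapped in any library of a group. In ACh KLF10 (242 ± 14.5) stood above BTG2 (203 ± 3.30), the only exchange of places. FOS remained the lowest at 35.4 ± 0.71 (SD, n = 3).

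KLF10 and KLF6 are zinc finger factors of the Krüppel-like family. KLF10 is an early TGF-beta response gene that represses growth, and KLF6 is a widely expressed early response factor. KLF10 (ENSG00000155090, chromosome 8, 102648779 to 102655902) had counts of 848, 834 and 823 in Control and of 1020, 981 and 906 in ACh. The Control libraries lay close together and the ACh libraries were spread, all above them. The mean rose from 835 ± 12.5 to 969 ± 58.1 (SD, n = 3), or 0.21 ± 0.05 as a log2 fold change with its standard error (limma adjusted p = 0.00192).

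KLF6 (ENSG00000067082, chromosome 10, 3775996 to 3785281) had counts of 1659, 1773 and 1718 in Control and of 1852, 1854 and 1899 in ACh. The groups did not overlap, but KLF6 did not pass, since the authors' deposited table gave it an adjusted p of 0.0715. Its log2 fold change, 0.12 ± 0.04 (standard error), was the smallest of the 9 genes and turned to -0.08 with the GC trend removed. The KLF10 to KLF6 ratio overlapped between the groups, with 0.747 ± 0.033 in Control and 0.796 ± 0.058 in ACh (SD, n = 3, exact permutation p = 0.3, adjusted 0.325).

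IER2 and IER5 encode related nuclear proteins of the IER family, and IER5 brings the phosphatase PP2A to the heat shock factor HSF1. IER5 (ENSG00000162783, chromosome 1, 181088712 to 181092899) had counts of 2643, 2743 and 2608 in Control and of 2436, 2512 and 2288 in ACh. The groups stood 96.5 apart. The mean fell from 2665 ± 69.7 to 2412 ± 114 (SD, n = 3), or -0.14 ± 0.04 as a log2 fold change with its standard error (limma adjusted p = 0.00259).

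IER2 (ENSG00000160888, chromosome 19, 13150415 to 13154908) had counts of 1251, 1400 and 1371 in Control and of 1163, 1282 and 1124 in ACh. ACh replicate 2 lay above Control replicate 1, so the groups overlapped, while within each of the 3 replicate numbers ACh was lower. The mean fell from 1340 ± 79.2 to 1190 ± 82.3 (SD, n = 3, a sign that turned with the GC trend removed), or -0.17 ± 0.05 as a log2 fold change with its standard error (limma adjusted p = 0.0062), and the authors' deposited table gave 0.0475. The IER2 to IER5 ratio did not separate the groups, with 0.686 ± 0.037 and 0.672 ± 0.022 (SD, n = 3, exact permutation p = 0.7, adjusted 0.7).

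BTG2 encodes an antiproliferative protein that recruits the CCR4-NOT deadenylase to mRNAs. BTG2 (ENSG00000159388, chromosome 1, 203305491 to 203309602) had counts of 673, 592 and 630 in Control and of 564, 549 and 565 in ACh. All ACh libraries were below all Control libraries, by a gap of 26.6. Its log2 fold change was -0.17 ± 0.06 (standard error), and BTG2 did not pass, since the authors' deposited table gave it an adjusted p of 0.126. In all, 7 of the 9 genes did not overlap between the groups, against 93.0% of all listed genes.

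Of the 5 members with lower means 3, JUNB, IER2 and JUND, lie on chromosome 19. On that chromosome 374 of 406 listed genes were lower in ACh and 32 higher, against 51.7% lower over all listed genes. With the GC trend removed, 187 were lower and 166 higher of the 353 with a GC value, and the number that fell went from 294 to 31. From JUNB to IER2, 11 genes were listed, these included, and all 11 were lower in ACh, 10 of them past both tests. With the trend removed 5 were lower and 4 higher of the 9 with a GC value, and 3 passed. They include CALR, a calcium-binding chaperone (log2 fold change -0.16), and PRDX2, a peroxidase (-0.21). For JUNB, JUND and IER5 the length in the table equals the whole distance from gene start to gene end, which leaves no room for an intron. Of 100 listed protein-coding genes of that kind 91 were lower in ACh, against 51.5% of the 3843 others. Their median GC content was 56.0% against 50.6%, and with the trend removed 66 of 90 were lower and 13 of them fell, in place of 66 that fell before. These 100 are not all nuclear genes, since their lowest log2 fold change, -0.97, was that of the mitochondrial MT-ATP8. Of the mitochondrial genes read for RNA quality 10 were lower, and 6 fell with the trend removed. How many of them are among the 100 was not counted.

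These genes differ in base composition, and fold changes moved with it. No human sequence was used here, so GC content is that of the mouse gene with a matching symbol, known for all 9 members and 3676 listed genes. Across these genes Spearman's rho between GC content and log2 fold change was -0.76, and genes are not independent replicates. All of these genes had been selected for an unadjusted p under 0.05, so genes with less change are missing from this relation. JUND (67.1%), JUNB (62.6%) and IER2 (60.9%) lay in the GC-rich end, above the median of 50.9%, and KLF6 (42.4%) and KLF10 (46.9%) below the median. FOSL1 went against this relation. Of 563 listed genes with a GC content at or above its own (58.5%), FOSL1 was the only gene higher in ACh. FOS (51.9%) was among 58 higher genes of the 1738 at or above its GC content.

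**Figure D3:**
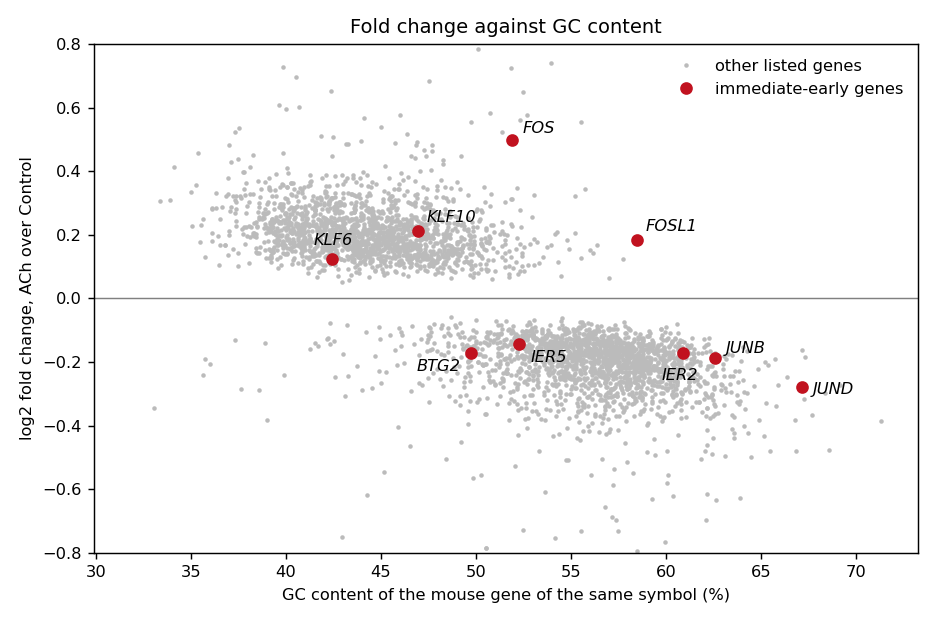
Log2 fold change of ACh over Control (vertical axis) against the GC content in percent of the mouse gene with a matching symbol (horizontal axis), with 1 point per listed gene and the 9 immediate-early genes in red. FOSL1 stands alone above 0 at its GC content of 58.5%, while JUNB, JUND and IER2 lie among other lower genes; 46 genes beyond 0.8 on either side are not drawn.

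The GC trend was fitted on the listed genes alone, which had been selected for a difference, and then taken out of each library. The authors' adjusted p stayed that of the deposited scale, so a gene failing it could not be called. After the removal FOS and FOSL1 were the only members past both tests, while 353 of the 3676 listed genes with a GC value were. FOSL1 then stood at 0.39 ± 0.05 (log2 fold change and standard error, limma adjusted p = 8.2e-06), above its 0.18 on the deposited scale, and FOS at 0.58 ± 0.13 (limma adjusted p = 0.00254). JUNB, JUND and IER2 changed sign, to 0.06, 0.02 and 0.06, and were not called (limma adjusted p = 0.251, 0.768 and 0.551). KLF6 changed sign too, to -0.08, and KLF10 (0.06) and IER5 (-0.04) lost their calls. BTG2 was at -0.20 and passed limma alone (adjusted p = 0.0308). The falls of JUNB, JUND, IER2 and IER5 and the rise of KLF10 therefore hold on the deposited scale and not after this removal.

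The differences between FOS and JUN subunits kept their direction under this removal. This follows from the single-gene values given above, so it is no separate support for them. With the trend kept, the log2 difference between FOSL1 and JUND was higher by 0.46 in ACh than in Control, and with the trend removed by 0.37. For FOSL1 against JUNB the values were 0.37 and 0.33, for FOS against JUND 0.78 and 0.56, and for FOS against JUNB 0.68 and 0.52. The libraries of the groups did not overlap in any of these differences, each with an exact permutation p of 0.1. JUND lies at the edge of the GC range, above 99.8% of the listed genes with a value or equal to them, where few genes set the trend.

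**Figure D4:**
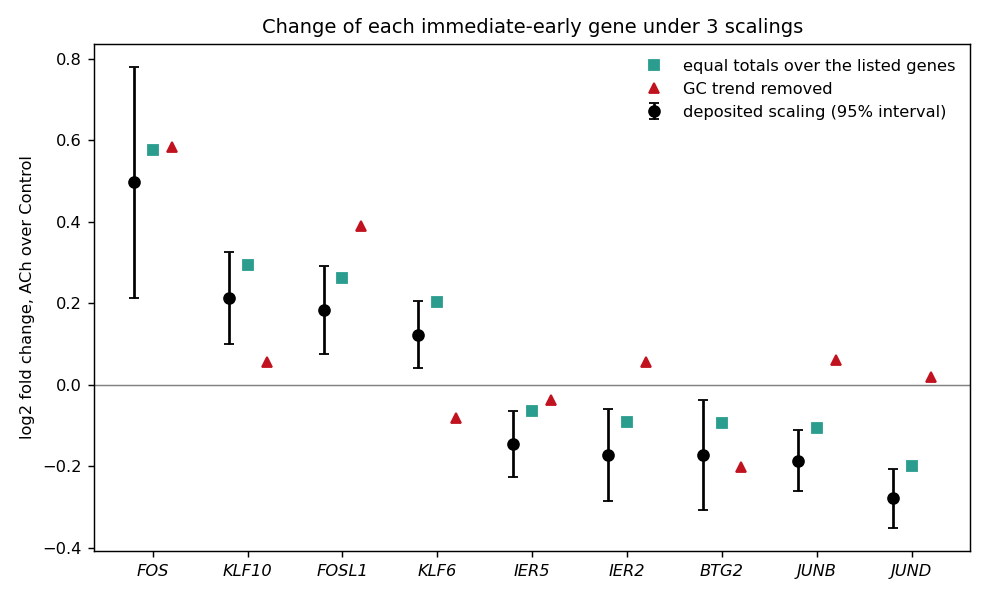
Log2 fold change of ACh over Control (vertical axis) of the 9 immediate-early genes under the deposited scaling with the limma 95% interval, with equal totals over the listed genes, and with the GC trend removed. FOS, FOSL1 and KLF10 stay above 0 and IER5 and BTG2 below 0 under all 3 scalings. JUNB, JUND, IER2 and KLF6 change sign once the GC trend is removed.

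Giving every library the same total over the listed genes raised the median log2 fold change of all listed genes by 0.08. IER2 (-0.09) and IER5 (-0.06) then lost their calls, JUND (-0.20) and JUNB (-0.11) kept theirs, and FOS, FOSL1 and KLF10 stood at 0.58, 0.26 and 0.29.

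Other AP-1 family genes also went both ways. For this list and those below, the background is the 63.8% of all listed genes past both tests. Of all listed genes, 28.8% rose and 35.0% fell. With the GC trend removed most calls were lost over all listed genes too, from 2677 to 353, with 3676 genes tested. Of 16 symbols looked for, 4 were listed. MAFK and MAFG, small MAF proteins that dimerise with FOS and NRF proteins, fell by 0.29 and 0.16 on the log2 scale. ATF7, a partner of JUN, rose by 0.26, and JDP2, a repressor that binds JUN, was at -0.27 without passing. None of the 3 calls was kept with the GC trend removed. Over the family the authors' table labels TF_bZIP, the basic leucine zipper factors, 14 genes were listed, 6 rose and 6 fell. FOS had the largest rise of that family and DBP, a circadian factor, the largest fall (-0.29). With the GC trend removed FOS and FOSL1 were its only 2 calls.

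Of the other early response genes, 13 of 45 symbols were listed, older symbols included, with 2 rises, 5 falls and 6 that did not pass. TIPARP, an ADP-ribosyltransferase, and SGK1, a serum-induced kinase, rose by 0.28 and 0.26. ID3, an inhibitor of helix-loop-helix factors, fell from 3008 ± 47.8 to 2381 ± 116 (SD, n = 3) and IER5L, a relative of IER5, fell by 0.23. ID1, RHOB and MIDN were the other 3 that fell. SGK1 and ID3 kept their calls with the GC trend removed. SIK1, a kinase induced by cAMP, had the list's highest log2 fold change (1.43), with overlapping groups. It was counted as not passing, though its authors' adjusted p is among those that may stand for a missing value. Its counts were low, at 4.06 to 7.90 in Control and 55.8, 12.4 and 6.29 in ACh replicates 1 to 3.

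Upstream of FOS and JUN, 17 of 33 symbols were listed, with 9 rises and 4 falls. The RAF kinase gene BRAF rose by 0.27 and MAPK8, which encodes the JUN kinase JNK1, by 0.23. MAP2K2, which encodes the ERK kinase MEK2, fell from 5898 ± 95.6 to 4886 ± 113 (SD, n = 3), and HRAS fell by 0.26. The GC content was 42.6% for BRAF and 40.1% for MAPK8, against 60.4% for MAP2K2 and 55.2% for HRAS. With the GC trend removed 1 call was left in this list. Of the ERK inhibitors 3 of 20 symbols were listed. The RAS-inactivating genes RASA1 and NF1 rose by 0.23 and 0.18, and DUSP6, an ERK phosphatase, was at 0.14 without passing. Both calls were lost with the GC trend removed.

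Among 27 symbols of AP-1 targets in epithelium 6 were listed. PTGS2, which encodes an inducible cyclooxygenase, rose by 0.60 on the log2 scale, IL1A, an alarm cytokine, by 0.39 and CD44, a hyaluronan receptor, by 0.12. MMP14, a membrane-bound metalloproteinase, fell by 0.17. CXCL8 (0.29) did not pass. MMP9 (3.19) was not called either, but its authors' adjusted p is among those that may stand for a missing value. MMP9 counts were low, at 0 to 5.37 in Control and 5.36, 6.79 and 96.4 in ACh replicates 1 to 3. The list's median log2 fold change was 0.34, and 0.18 over the 5 members with a GC value once the trend was removed, when PTGS2 alone kept its call.

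Of the other KLF and SP factors 6 of 23 symbols were listed. KLF12 rose by 0.32, SP3 by 0.19 and KLF3 by 0.16, and SP6 and KLF16 fell by 0.27 and 0.26, with SP1 not past both tests. All 5 calls were lost with the GC trend removed.

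The partners of BTG2 in mRNA decay went both ways. Of 18 symbols of BTG and TOB proteins and of CCR4-NOT 7 were listed, with 5 rises and 2 falls. The deadenylase genes CNOT6L and CNOT7 rose by 0.32 and 0.22, and CNOT3 and TNKS1BP1 fell by 0.18 and 0.24. Of 13 symbols of proteins that bind or degrade AU-rich mRNA, the class to which FOS mRNA belongs, 7 were listed. The exonuclease gene XRN1 and the decapping gene DCP2 rose by 0.32 and 0.29, AGO2 rose by 0.11, and KHSRP and HNRNPD fell by 0.24 and 0.15. ZFP36L1 and ZFP36L2 did not pass. HNRNPD was the only one of these genes called with the GC trend removed (-0.36).

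PP2A subunits and HSF1 with its targets, the partners of IER5, had 15 of 24 symbols listed, with 6 rises and 6 falls. HSF1 had a log2 fold change of -0.25 and its targets HSPB1 and HSPA1B of -0.33 and -0.27, all 3 past both tests, and the PP2A catalytic subunit gene PPP2CB rose by 0.21 with DNAJB4 at 0.27. PPP2CB alone was called with the GC trend removed (0.38). HSPA1A and HSPA1B are near-identical copies, so their reads are uncertain. Of 16 TGF-beta and SMAD symbols 5 were listed. The receptor gene TGFBR1 and SMAD5 rose by 0.23 and 0.20, the inhibitor gene SMAD6 fell by 0.24, and TGFB1 and SKIL did not pass. None of these 3 calls was kept with the GC trend removed.

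Over the 6 libraries many listed genes had a pattern close to that of FOS, JUNB or JUND, since all share the group difference. Likeness was Pearson's r of log2(value + 1) among listed genes with a mean of at least 100. For FOS the closest were HLTF and GPAM (r = 0.995 each), for JUNB WDR18 and CALR (0.999 each), and for JUND PUF60 (0.999) and SPINT2 (0.997). An r above 0.95 was reached by 234 of 3934 genes for FOS, and by 337 and 517 of 3933 for JUNB and JUND.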

How the data were processed

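The 6 KYSE30 libraries were prepared from total RNA with SMARTer chemistry, per the labels' protocols. Bowtie 0.12.2 and 2 mouse builds, mm10 and mm8, appear in the submitters' processing notes. Which human build and which counter were used is not given in the sources used here. The deposited signal appears to be a read count that the authors divided by 1 factor per library, from the values alone: all were whole multiples, within 0.1, of a step of 0.768 to 1.13. Log2 fold changes, p-values and adjusted p-values were computed by the authors, per the file headers. Gene lengths and coordinates are printed as deposited.

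Groups came from the sample titles. All 4195 genes were fitted on log2(value + 1) with limma 3.58.1 (limma-trend, R 4.3.3), group as the only term, Benjamini-Hochberg adjustment at 0.05 and no filter. limma alone called 99.6% of the listed genes, since they had been selected for a difference, so it is no independent support for the authors' calls. The method was tested on simulated data. Same-numbered libraries deviated together (r = 0.116, 0.143 and 0.280 for pairs 1 to 3, reading KA1001 as number 1). Differently numbered libraries had r from -0.240 to 0.079, and the sample titles state no pairing. The numbers were therefore taken to pair the samples in the replicate block and the paired permutation test only. The main fit left them out. A GC trend was taken out of each library by local regression (span 0.3) on GC content, taken in GENCODE M21 from the mouse gene with a matching symbol, at its longest coding transcript (3676 of 4195 genes, 87.6%). The trend was fitted on these listed genes only, which had been selected for a difference. Its removal also centres each library on the listed genes. Count-based tests were planned and not run: that a step is 1 read could not be established for Control, whose libraries each held only 81 to 93 values of 20 steps or fewer. The paired permutation test of the shares was added after the data were seen.

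The members and lists were chosen with earlier results of these data known. Named genes are the 9 members, up to 2 per direction of each list with the largest change among called genes without overlap, all of a list with 3 or fewer listed, and the 2 closest patterns to FOS, JUNB and JUND. Other list members, HOOK2, DBP and PRDX2 were named after their values were seen. Tables and plots were made in Python 3.11.15 with SciPy 1.17.1, NumPy 2.4.6, pandas 2.3.3 and Matplotlib 3.10.9.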

Additional observations from a re-analysis of the deposited data

How the results depend on the processing

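With the GC trend removed, the calls among all listed genes went from 2677 (1207 higher, 1470 lower) to 353 (142 higher, 211 lower), and with the replicate block added to 485 (214 higher, 271 lower). Fewer genes, 3676, were tested. The authors' adjusted p stayed that of the deposited scale, so removal could take their calls away but not add to them. Of the 9 immediate-early genes 2 were then called in both fits, 2 higher and 0 lower. None of the 4 lower calls passed limma (of these 4, 0 were lower at an unadjusted p under 0.05). BTG2, which had no call before, was lower and passed limma alone in both fits (limma adjusted p = 0.0308, and 0.0146 with the block). JUNB, JUND, KLF6 and IER2 changed sign in both fits, to 0.0597, 0.0191, -0.0812 and 0.0555. With equal totals 2 members were called lower in place of 4, and 54.9% of all calls were higher in place of 45.1%. The cause was not tested.

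The replicate block alone left the number of calls at 2677 and changed no call of the 9 genes. A pseudocount of 0.1 and leaving out any 1 library changed none either; without 1 library the log2 fold change ran from 0.44 to 0.54 for FOS, 0.13 to 0.24 for FOSL1 and -0.29 to -0.26 for JUND, and the ACh minus Control difference in the summed share of FOS and FOSL1 from 4.64 to 5.81 percentage points. In these fits the authors' adjusted p was that of all 6 libraries. The lower-quartile filter removed FOS and took the calls among AP-1 targets from 4 to 2 and among other KLF and SP factors from 5 to 3. With the GC trend removed, adding the block took the calls from 1 to 3 among genes upstream of FOS and JUN, from 1 to 2 among AP-1 targets and from 1 to 4 among PP2A and HSF1 genes. The paired permutation test moved no share or ratio past 0.05, which 3 pairs cannot reach. The planned count-based tests were not run. Depth limits FOS most, at 83 to 112 steps.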
